A study of Drosophila melanogaster with 57 samples.

Results

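The odorant-binding protein genes of Drosophila melanogaster were followed through flies with deletions of the genes for hydrogen sulphide production. A gene was counted as a member when its FlyBase symbol began with Obp and a digit, and lush (FBgn0020277) was added, because its product belongs to the same protein family under an older name. The rule found 52 genes among the 17559 genes of the files. Odorant-binding proteins are small secreted proteins that carry hydrophobic ligands through aqueous fluids, and they were first known from the lymph around the olfactory neurons of the antenna, where support cells secrete them. Other members are made in taste bristles, in the fat body and gut, or in the male accessory gland and ejaculatory duct, from where they pass to the female in seminal fluid. By the site for which each is best known, 10 members were grouped as antennal, 9 as taste organ, 7 as seminal fluid and 26 as other or not assigned.

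RNA was sequenced from polyadenylated transcripts of flies 5 days old, kept at 23 °C with 20 flies per vial and the sexes apart, in 19 groups of 3 libraries each. The control was the stock of the injected embryos, which carries a Cas9 transgene under the actin 5C promoter, the alleles y1 and w1118 and a mutation of DNA ligase 4. The deletion strains were MST-/- (gene CG12279), CSE-/- (gene Cth), CBS-/-(5) and CBS-/-(8) (gene Cbs, from separate transformants), and 2 double deletion strains, double deletion (1) from CBS-/-(5) and CSE-/-, and double deletion (2) from CBS-/-(8) and CSE-/-. Each deletion was made with CRISPR/Cas9 and an integrated mCherry reporter. MST-/- and CSE-/- were each 1 transformant, found after the injected flies had been crossed to the laboratory strain yw, and the double deletion strains also went through balancer crosses, so the deletion strains differ from the control in background as well as in the deleted gene. Whole females and whole males of all 7 strains were sequenced. Double deletion (2) males backcrossed on yw were sequenced as whole bodies, and the control and CBS-/-(5) of both sexes also as samples labelled thorax, which the study's text describes as lacking ovaries and spermathecae. Nothing in the labels says that the libraries of a group came from separate cultures, so the p-values below measure the spread between these libraries, which may be technical.

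Several libraries stood apart or went against their labels. One backcross library held 7321 counts and was left out, while the other 56 held 9705034 to 31616200 counts on genes. Cbs stood at 0.0772 to 1.36 counts scaled to a library total of 1000000 (CPM) in all whole-body libraries of the CBS-/- and double deletion strains and at 46.8 to 217 CPM in those of the control, CSE-/- and MST-/- strains. Cth stood at 7.24 to 7.78 CPM in CSE-/- females and 15.4 to 26.5 CPM in CSE-/- males, against 114 to 119 and 58.1 to 71.4 CPM in the control, and CG12279 at 0.977 to 2.88 CPM in MST-/- flies of both sexes, against 9.69 to 15.9 CPM. The backcross libraries, however, had Cbs at 33.3 and 34.4 CPM and Cth at 32.7 and 45.4 CPM, against their label. The libraries labelled thorax carried more photoreceptor transcripts of the eye (12 genes, 10680 to 14640 CPM in control males) than whole control males did (5658 to 6602 CPM). Control female thorax library 1 had 31.3% ambiguous reads. Control thorax library 3 of females and of males had 2.26% and 4.56% of reads on no gene, against 22.0% to 37.5% in the other 10 libraries labelled thorax. Transcripts of eggshell and yolk protein genes occurred in whole male libraries at a level equal to an admixture of 0.52% to 62.8% of the RNA of a female of the same strain. Library 2 of the double deletion (1) females held 142 CPM of 12 accessory gland genes, against 0.488 CPM in the lowest library of that group.

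Of the 52 genes, 21 reached a mean of 1 CPM in whole control females and 32 in whole control males, while 4 members (Obp47b, Obp50b, Obp50c and Obp57d) had no count in any library. All exon bases of these 4 overlap another gene (611 for Obp47b, 1648 for Obp50b and Obp50c, 1488 for Obp57d). Their reads may have been ambiguous, so 0 counts need not mean that no transcript was present. Enough counts for a test were found for 28 members in whole females and 34 in whole males, and 17 members passed in neither sex. Per kilobase of exon, Obp99a was highest in control females at 208 CPM per kb, followed by Obp99c at 165 and Obp19c at 52.9. In control males the order was Obp56g at 1514 CPM per kb, Obp99c at 930.5 and Obp51a at 897. The members lie on chromosomes 2R (29 genes), 3R (12), X (6), 3L (3) and 2L (2), in part as clusters. Obp19a to Obp19d lie together on X (20415744 to 20420979 in the BDGP6 annotation), and Obp83a and Obp83b on 3R (5972155 to 5976817). Exons of 14 members overlap those of another gene, and for these reads could not be assigned with certainty, since the strand setting of the counting is not given in the sources used here. Among the members described below these are Obp44a, Obp59a, Obp69a, Obp83cd, Obp83ef and Obp99c.

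In the control, most members were lower in females than in males. Of the 37 members tested in whole bodies of both sexes, 33 were lower and 1 was higher in females. Of all 13535 genes tested 90.2% were called, 53.4% as lower and 36.8% as higher, and the median of all genes was -0.86 on the log2 scale. The median of the members was -2.76. When the scaling factors were taken from genes at least as high in the control thorax as in the whole body, the median of all genes moved to 0.65 and the split to 25 lower and 5 higher.

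Genes of seminal fluid proteins were among those furthest apart. Obp51a had 14280 counts in the 3 whole control male libraries (358, 384 and 330 CPM) and none in the 3 female libraries. With a floor of 3 counts over the group it was at least 7550-fold lower in females. Obp56f had 34.7, 36.5 and 35.8 CPM in males and 0, 0.0437 and 0 CPM in females, which is 1432 counts against 1, a ratio of 2270 with a 95% counting interval of 407 to 89800. Obp22a stood at 27.3, 26.1 and 24.4 CPM in males and had 1 count in females (ratio 1650, interval 295 to 65000). Counting intervals cover counting error only. No female library of the control overlapped the males for any of these genes.

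One member was higher in control females by the edgeR quasi-likelihood test used throughout (values are log2 fold changes ± SE, with Benjamini-Hochberg adjustment over all genes of a comparison). Obp19c had 84, 36.2 and 35 CPM in females and 4.09, 5.43 and 6.33 CPM in males (3.40 ± 0.67, adjusted p = 2.25e-05). The libraries of both sexes were far apart, although the female libraries spread widely. Obp99a, listed as antennal and the member with the highest level per kb in females, did not pass the test (165, 51.2 and 164 CPM against 65.1, 81.6 and 99.3 CPM, 0.75 ± 0.38, adjusted p = 0.0595).

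**Figure D1:**
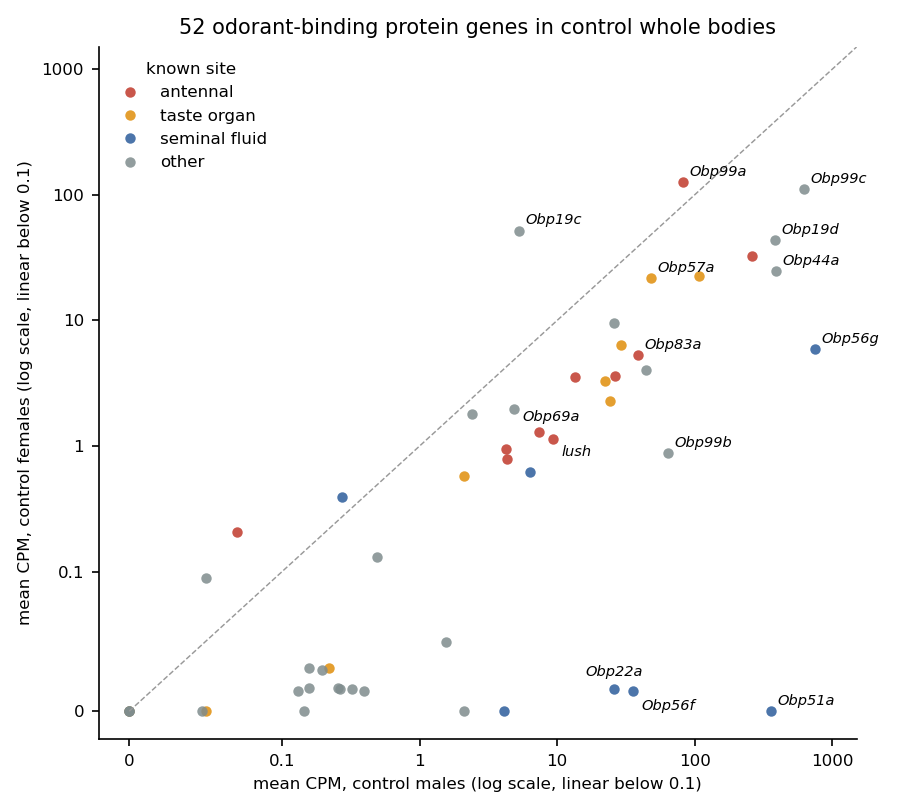
Mean CPM of the 52 members in whole control males (x axis) and whole control females (y axis), 3 libraries each, on log axes that are linear below 0.1, coloured by the site each member is known for. Most points lie below the dashed line of equal CPM, Obp51a is at 0 in females, and Obp19c lies above the line.

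The largest changes in the deletion strains were in antennal members, and they were found in the strains without Cbs. Here and below, libraries and flies without Cbs are whole bodies unless samples labelled thorax are named. Obp83a (OS-F) and Obp83b (OS-E) encode proteins of the lymph of pheromone- and odour-sensing antennal hairs. In whole females Obp83a had 4.96, 5.94 and 5.06 CPM in the control, 0.0442, 0.0348 and 0.129 CPM in CBS-/-(5), and 0.0439, 0 and 0.102 CPM in CBS-/-(8). The double deletion (1) females had 0.133, 0.189 and 0.0422 CPM and the double deletion (2) females 0.0801, 0.0496 and 0.898 CPM. All 12 libraries without Cbs lay below the lowest control library. In counts this was 340 in the control females against 5 in CBS-/-(5) (ratio 79.7, interval 33.8 to 247), 3 in CBS-/-(8) (ratio 113, interval 38.2 to 548) and 9 in double deletion (1) (ratio 43.2, interval 22.5 to 95.2). For double deletion (2) the fitted change was -3.92 ± 0.58 (adjusted p = 6.32e-05).

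The same gene was more abundant in males and fell there too. Control males had 35.2, 40.9 and 40.8 CPM of Obp83a, while CBS-/-(5) males had 0.198, 0.418 and 0.139 CPM and CBS-/-(8) males 0.0733, 0 and 0 CPM. In double deletion (1) males the values were 0.219, 0 and 0.0697 CPM and in double deletion (2) males 0.232, 0 and 0.154 CPM. The groups did not overlap, and the log2 fold change was -7.14 ± 0.38 in CBS-/-(5) (adjusted p = 4.74e-10). The other 3 strains had 1, 4 and 5 counts in place of 1570, which gives ratios of 1770 (interval 317 to 70000), 417 (163 to 1530) and 302 (129 to 930).

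Obp83b, the neighbour of Obp83a on 3R, followed it closely. It had 3.75, 4.24 and 2.81 CPM in control females and 24, 27.5 and 27.6 CPM in control males. Across the 12 libraries without Cbs it ranged from 0 to 0.629 CPM in females (median 0.0441) and from 0.0537 to 0.264 CPM in males (median 0.138). Both sexes of the CSE-/- and MST-/- strains kept levels of 2.49 to 5.78 CPM in females and 12.6 to 38.7 CPM in males.

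Obp19a and Obp59a were nearly undetected without Cbs. Obp19a had 1.16, 1.18 and 0.501 CPM in control females and 4.43, 4.39 and 3.81 CPM in control males. The 12 female libraries without Cbs held 9 counts of it in all and the 12 male libraries 2 counts. It had 0 counts in CBS-/-(8) males and in double deletion (2) males, so that it was at least 63.2-fold and 53.8-fold lower there than in control males, at a floor of 3 counts over the group. Obp59a, which in the fly is needed for humidity sensing, had 0.818, 1.09 and 0.451 CPM in control females and 3.17, 4.09 and 5.79 CPM in control males. Its counts without Cbs came to 7 in the 12 female and 5 in the 12 male libraries. In CBS-/-(8) and double deletion (1) females no count was found, against 51 in the control, which is at least 16.9-fold and 19.4-fold lower.

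lush and Obp69a fell by less, and some of their transcript remained. LUSH binds alcohols and takes part in the response to the male pheromone cis-vaccenyl acetate, and Obp69a has been linked to social responses to the same pheromone. Control males had 8.19, 10.1 and 9.53 CPM of lush, and the 12 male libraries without Cbs had 0.33 to 0.732 CPM (median 0.478). The log2 fold changes were -4.64 ± 0.26, -4.38 ± 0.25, -3.99 ± 0.24 and -4.09 ± 0.24 in CBS-/-(5), CBS-/-(8), double deletion (1) and double deletion (2) males, with adjusted p from 8.32e-10 to 1.51e-09. In females lush stood at 1.11, 1.44 and 0.852 CPM in the control and at 0.102 to 0.673 CPM without Cbs, with changes of -2.21 ± 0.46, -2.67 ± 0.50, -2.07 ± 0.46 and -1.38 ± 0.44 in the same order. The female call in CBS-/-(5) had an adjusted p of 0.00385 and was lost when only the 2 groups compared were fitted (adjusted p = 0.083). Obp69a had 7.68, 7.89 and 6.6 CPM in control males and 0.385 to 1.39 CPM in males without Cbs, and its changes ran from -3.97 to -2.82 in males and from -3.22 to -1.97 in females. No whole-body library without Cbs reached the control range for either gene in either sex.

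Obp28a, whose protein binds floral odours, fell in all 4 strains in males and in 2 of 4 in females. Control males had 11.1, 15.3 and 14.4 CPM and males without Cbs 0.807 to 4.28 CPM, with log2 fold changes between -2.98 and -2.02. In females the control values were 2.55, 4.72 and 3.31 CPM. Obp28a fell by 2.67 in CBS-/-(8) and by 2.12 in double deletion (1) on the log2 scale, while CBS-/-(5) (1.33, 1.32 and 2.33 CPM, -1.10 ± 0.41, adjusted p = 0.077) and double deletion (2) (1.28, 1.24 and 3.95 CPM, -0.69 ± 0.41, adjusted p = 0.14) did not pass the test.

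**Figure D2:**
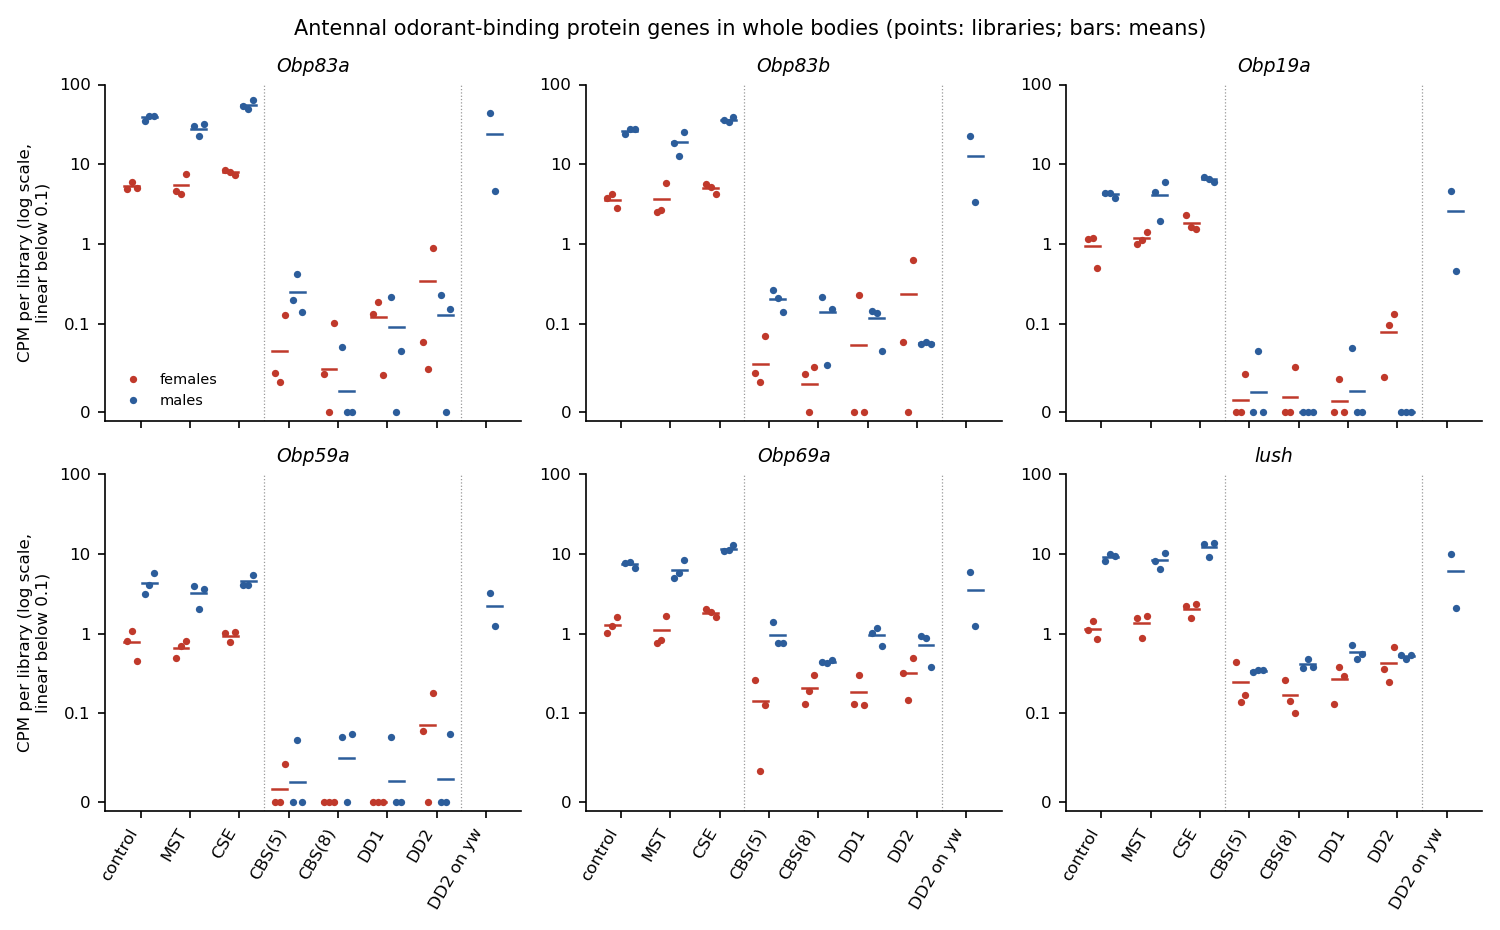
CPM per library (y axis, log scale, linear below 0.1) of 6 antennal members in whole females (red) and males (blue) of each strain, with bars at the group means and dotted lines around the strains without Cbs. DD1 and DD2 are double deletion (1) and (2), and DD2 on yw the 2 backcross libraries. In each panel the points of the 4 strains without Cbs lie below those of the control, MST and CSE strains of the same sex.

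Taken over the antennal list, 9 of 10 members could be tested, and Obp84a had too few counts. In females 6, 7, 7 and 6 of the 9 were lower in CBS-/-(5), CBS-/-(8), double deletion (1) and double deletion (2), with list medians of -3.22, -2.67, -2.76 and -1.97, where 3.89%, 8.00%, 14.2% and 31.8% of all genes were lower. In males 7, 7, 7 and 8 were lower, with medians of -4.64, -4.38, -3.99 and -4.09, where 18.1%, 19.6%, 7.29% and 9.74% of all genes were lower. The medians of all genes lay between -0.03 and 0.03 in both sexes. At most 1 member in a comparison had no counts, and at its bound it stayed below the median, so these medians could not move. In MST-/- and CSE-/- no antennal member was called in either sex by edgeR, and the list medians were -0.02 and 0.45 for females, whereas males had -0.43 and 0.43. Of the 284 alternative settings tried on the 26 falls of named antennal members in females, 283 kept the call, the exception being the one for lush above, and all 382 settings on the 28 falls in males did. Most of these members were named because they were called in these data, and only their calls were followed. Settings in which a member could not be tested were not counted. High shares kept are therefore partly a result of the choice. Obp56d and Obp99a went the other way in some strains. Obp56d was higher in 3 strains in females (1.51, 0.97 and 1.68 in CBS-/-(8), double deletion (1) and double deletion (2)) and lower in double deletion (2) males (-0.48), and Obp99a was higher in double deletion (1) females only among the strains without Cbs (0.94 ± 0.34, adjusted p = 0.0451), a call that was lost in 7 of 12 other settings. In bulk RNA, fewer cells of a type and less RNA per cell cannot be told apart.

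Genes of the antenna outside the family were called in both directions in females and only as lower in males of the strains without Cbs. Of 10 other antennal genes, 8 were tested, and 4, 4, 5 and 4 were lower in females of the 4 strains without Cbs, in the order above, and 7 in males of each. In females 1, 1, 1 and 2 were higher. None was called in MST-/- or CSE-/-. Est-6, an esterase gene that is also active outside the antenna, rose from 72.4 to 76.2 CPM in control females to 117 to 301 CPM without Cbs (1.13 to 1.64), and the summed level of the list had a mean of 108 CPM in the control and means of 186 to 257 CPM without Cbs. Os-C, a gene of the antennal lymph, had 3.86 to 5.54 CPM in control females and 0.102 to 1.80 CPM in females without Cbs. It had a mean of 29.1 CPM in control males (22.1 to 34.4) and stayed at or below 0.837 CPM in every whole male library without Cbs. Another gene of the antenna, a5, had 10.02 to 13.1 CPM in control males and at most 0.0697 CPM in whole males without Cbs. In whole females a5 had 1.35 to 2.21 CPM in the control and at most 0.269 CPM without Cbs. Samples labelled thorax of CBS-/-(5) females and males reached 5.19 and 9.27 CPM of Os-C and 1.92 and 2.83 CPM of a5. Those of the control reached 7.495 and 11.76 CPM of Os-C and 3.88 and 4.67 CPM of a5. Orco, the coreceptor of odorant receptors and thus a gene of the olfactory neurons, fell less far. It had 11 to 12.7 CPM in control males and 0.772 to 3.41 CPM in males without Cbs, with log2 fold changes of -3.10 to -2.39 in males and -3.10 to -1.42 in females. Of the 61 odorant receptor genes only 6 were tested in females and 11 in males, of which 1 or 2 and 2 to 4 were lower. Their summed level, Orco included, had a mean of 12.7 CPM in control females and 7.725, 9.37, 11.4 and 12.5 CPM in the 4 strains. In males the mean was 37.4 CPM in the control and 17.8, 16.6, 21.45 and 17.5 CPM in the 4 strains. The 17 olfactory ionotropic receptor genes had summed means of 4.19 CPM in control females and 4.81, 7.79, 9.50 and 10.5 CPM in the 4 strains, with 1, 2, 2 and 3 of 9 tested higher and 0, 1, 0 and 0 lower, while in males 5, 5, 3 and 2 of 10 were lower and 0, 1, 0 and 0 higher. The 12 photoreceptor genes of the eye were not lower in any of the 4 strains in females (7 to 11 of 12 were higher), and in males 0 to 2 were lower and 1 or 2 higher. Of 6 neuronal genes none was lower in females and at most 1 in males.

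Across the family, the counts of changed members in females were 15 of 28 in CBS-/-(5), where 15.2% of all genes were called, 18 in CBS-/-(8) (24.6% of genes), 19 in double deletion (1) (30.8%) and 23 in double deletion (2) (66.3%). Higher and lower members numbered 9 and 6, 11 and 7, 12 and 7, and 17 and 6, where 11.3%, 16.6%, 16.6% and 34.4% of all genes were higher. As shares of the 28 members tested these were 53.6%, 64.3%, 67.9% and 82.1%. Leaving out library 3 of the CBS-/-(5) females reduced that strain's count to 9 (3 higher and 6 lower). With scaling factors from thorax genes, the median of all genes fell by 0.49, 0.64, 0.53 and 0.98 on the log2 scale, and the splits became 4 and 7, 7 and 9, 6 and 8, and 7 and 9.

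In males 19 of 34 members changed in CBS-/-(5) (32.7% of all genes), 21 in CBS-/-(8) (32.3%), 15 in double deletion (1) (12.7%) and 20 in double deletion (2) (18.0%). Here lower members prevailed, with 8 higher and 11 lower, 5 and 16, 4 and 11, and 5 and 15, and 14.6%, 12.8%, 5.37% and 8.24% of all genes were higher. With the thorax genes for scaling the split in CBS-/-(5) was 5 and 12. Leaving out library 3 of the control males took the double deletion (2) count to 13. After subtraction of the estimated female RNA, the splits were 6 and 8, 3 and 10, 1 and 8, and 0 and 9.

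**Figure D3:**
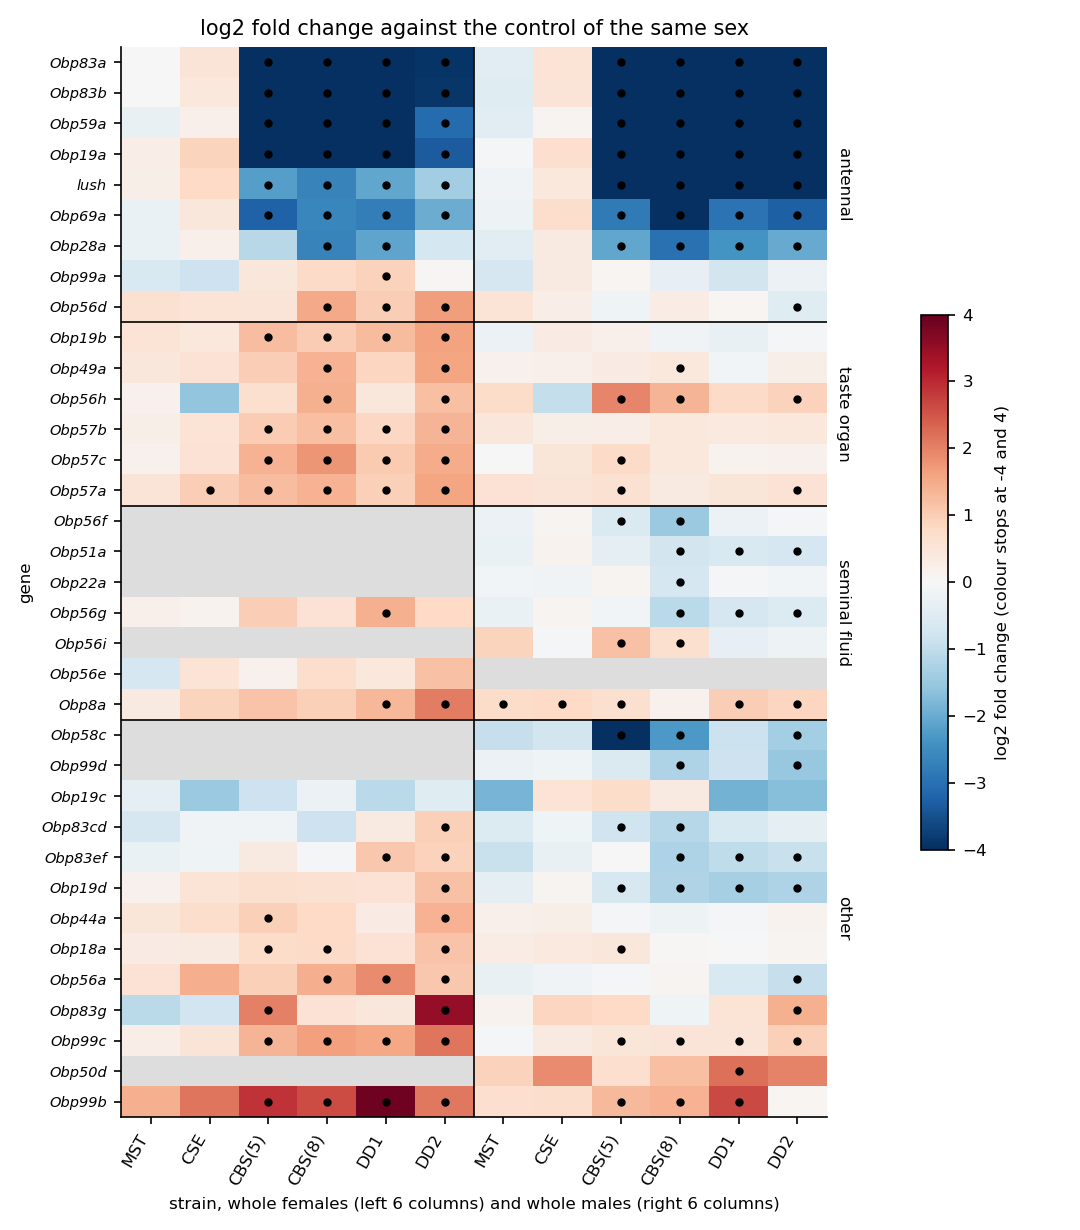
Log2 fold change against the control (colour, which stops at 4 in either direction) of the members tested, for females and males of 6 deletion strains, with a dot where the adjusted p was under 0.05 and grey where the member could not be tested. The antennal members at the top show the falls in the 4 strains without Cbs and in neither MST nor CSE, and the taste organ members rise in females of the same strains.

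Members known from taste organs rose in females. Obp57a, Obp57b and Obp57c lie side by side on 2R and are known from taste bristles, and Obp19b was listed with them. Obp57a had 21.3, 27.2 and 16.6 CPM in control females, 45, 35.4 and 74.2 CPM in CBS-/-(5), 59.8, 49.4 and 60.2 CPM in CBS-/-(8), 45, 36.1 and 49.2 CPM in double deletion (1) and 67.1, 48.5 and 74.9 CPM in double deletion (2). None of these libraries overlapped the control, and the changes were 1.24 ± 0.24, 1.39 ± 0.24, 0.97 ± 0.24 and 1.57 ± 0.24 with adjusted p between 8.35e-05 and 0.0068. It was also the 1 member called in CSE-/- females (48.1, 42 and 42 CPM, 0.97 ± 0.24, adjusted p = 0.0296). That call was lost on leaving out any library of the 2 groups except control library 2.

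Obp57c rose in the same 4 strains, from 23.9, 20.1 and 24.1 CPM in control females to 44.2 to 83.2 CPM (median 59.8), with changes of 1.04 to 1.77. Obp57b (6.84, 5.42 and 6.91 CPM in the control, 7.75 to 19.3 CPM without Cbs) and Obp19b (2.41, 2.54 and 1.95 CPM, against 4.11 to 8.77 CPM) rose by 0.83 to 1.37 and by 1.01 to 1.62. Strains with Cbs also lay above the control for some of these genes. CSE-/- females had 30.8 to 37.7 CPM of Obp57c, 8.59 to 10.3 CPM of Obp57b and 2.655 to 3.556 CPM of Obp19b. MST-/- females had 30 to 35.7 CPM of Obp57a and 25.6 to 28.7 CPM of Obp57c. None of these was called. With scaling factors from thorax genes, the calls for Obp57a remained in all 4 strains. Those for Obp57b were lost in CBS-/-(5), double deletion (1) and double deletion (2) (adjusted p 0.14 to 0.26), those for Obp57c in both double deletion strains (0.069 and 0.073) and those for Obp19b in both CBS-/- strains (0.087 and 0.18). When only the groups compared were fitted, the CBS-/-(5) calls for Obp57a, Obp57b and Obp19b were lost (adjusted p 0.094, 0.20 and 0.13). Of the 6 taste organ members tested, 4, 6, 4 and 6 were higher in females and none was lower. In males 3, 2, 0 and 2 were higher and none lower, and the medians were 0.26 to 0.46 against 0.92 to 1.52 in females. Summed levels of some lists unrelated to taste also differed in these females. The summed level of 4 flight muscle genes had a mean of 284.5 CPM in the control and means of 524 to 877 CPM without Cbs (3, 0, 1 and 3 of 4 called higher), and that of 4 ejaculatory duct and bulb genes 134 and 322 to 444 CPM (the 1 gene tested was called higher in each strain). The 10 eggshell genes had a mean of 7444 CPM in the control and 3863, 6985, 5033 and 3875 CPM in the 4 strains, with none called. Their part in the taste organ values was not tested.

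Obp99c rose in both sexes of all 4 strains without Cbs, and per kilobase it was the highest member in each of them (430 to 726 CPM per kb in females, 1275 to 1734 CPM per kb in males) except in CBS-/-(5) males, where it had 1238 and Obp56g 1327 CPM per kb. Control females had 130, 106 and 96.2 CPM, CBS-/-(5) 232, 244 and 387 CPM, CBS-/-(8) 303, 394 and 320 CPM, double deletion (1) 322, 288 and 388 CPM, and double deletion (2) 523, 308 and 627 CPM. The groups did not overlap, and the changes of 1.37 ± 0.25, 1.63 ± 0.25, 1.55 ± 0.25 and 2.15 ± 0.25 kept their calls with the thorax genes for scaling. Control males had 608, 629 and 631 CPM and males without Cbs 635 to 1302 CPM. The male rises of 0.50, 0.51, 0.51 and 0.96 passed the test (adjusted p 0.0275, 0.0235, 0.0463 and 0.000437). All 4 were lost after subtraction of the estimated female RNA (adjusted p 0.066 to 0.67). Strains with Cbs also had values above the control, though Obp99c was not called in them. CSE-/- flies had 144 to 183 CPM in females and 723 to 860 CPM in males. MST-/- females had 130.4 to 148.3 CPM, against a highest control library of 129.9 CPM, and MST-/- males 520.5 to 630.9 CPM.

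Obp99b, also known as tsx, is a male-enriched gene, and its values spread widely within groups. In control females it had 0.867, 1.22 and 0.551 CPM. The double deletion (1) females had 7.41, 5.25 and 27.7 CPM (3.88 ± 0.70, adjusted p = 0.00084), and CBS-/-(5), CBS-/-(8) and double deletion (2) females 1.49 to 10.1 CPM, with changes of 2.89, 2.60 and 2.12. CSE-/- females had 6.18, 3.95 and 2.18 CPM, which did not overlap the control but were not called (2.15 ± 0.69, adjusted p = 0.13). In males the control had 70.8, 63.9 and 58.7 CPM and the double deletion (1) strain 573, 238 and 411 CPM (2.63 ± 0.47, adjusted p = 0.00068). Obp99b was also higher in CBS-/-(5) and CBS-/-(8) males (1.31 and 1.40), but not by the test in double deletion (2) males (60.6, 86.2 and 49 CPM, 0.08 ± 0.45). Without library 3 of the CBS-/-(8) males the value there was 0.68 (adjusted p = 0.21), and leaving out any control male library also ended that call, with values of 1.32 to 1.45. It was also lost after subtraction of the estimated female RNA (adjusted p = 0.070). With the thorax genes for scaling, the calls in CBS-/-(5) males and double deletion (2) females were lost (adjusted p 0.056 and 0.12).

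Obp19d fell in males and not in females. Control males had 347, 379 and 420 CPM, and the males without Cbs 139 to 280 CPM (median 168). The groups were apart in each strain, and the changes were -0.63 ± 0.14, -1.19 ± 0.14, -1.32 ± 0.15 and -1.23 ± 0.14. MST-/- males, with 322, 272 and 282 CPM, also lay below the control but were not called, and CSE-/- males had 378 to 436 CPM. In females the control had 41.2, 49.2 and 39.8 CPM and the strains without Cbs 50.8 to 121 CPM, higher by the test in double deletion (2) alone (1.18 ± 0.27, adjusted p = 0.0017, and 0.08 with the thorax genes for scaling, adjusted p = 0.74). After subtraction of the estimated female RNA the fall in CBS-/-(5) males was no longer called (adjusted p = 0.57). Obp44a was higher in CBS-/-(5) and double deletion (2) females (0.96 and 1.39, and 0.28 in both with the thorax genes for scaling, not called) and was called in no strain in males, where it ranged from 276 to 448 CPM without Cbs and from 364 to 411 CPM in the control.

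Genes of seminal fluid proteins changed little by comparison. Obp8a was the member called in most strains in males. It had 5.18, 7.89 and 6.06 CPM in control males, 11.9, 10.7 and 8.82 CPM in MST-/- and 9.81, 11.5 and 11.1 CPM in CSE-/-, and it was the 1 member called in each of these strains (0.73 ± 0.18, adjusted p = 0.0495, with 1.54% of all genes called and 0.706% higher, and 0.81 ± 0.18, adjusted p = 0.0134, with 3.71% called and 1.70% higher). DESeq2 called 4 members in each. Neither edgeR call held on leaving out control male library 1 or 3, nor after subtraction of the estimated female RNA (adjusted p 0.593 and 0.0597). Obp8a also rose in CBS-/-(5), double deletion (1) and double deletion (2) males (0.64, 0.97 and 0.86). The calls in both double deletion strains were lost after subtraction of the estimated female RNA (adjusted p 0.136 and 0.148). That in CBS-/-(5) was lost when only the groups compared were fitted (adjusted p = 0.0923). In CBS-/-(8) males (5.94, 6.87 and 7.78 CPM) it overlapped the control (0.16 ± 0.18).

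Among the other members of this list, Obp56i was higher in CBS-/-(5) males (8.78, 8.44 and 9.05 CPM against 4.59, 4.02 and 3.74 CPM, 1.18 ± 0.23, adjusted p = 0.0016) and in CBS-/-(8) males (5.43, 3.97 and 9.48 CPM, 0.65 ± 0.24), where it overlapped the control. Obp51a, Obp56f, Obp56g and Obp22a were lower in some of the strains without Cbs, with Obp56f in CBS-/-(8) the most changed (12.2, 12.7 and 11.5 CPM against 34.7, 36.5 and 35.8 CPM, -1.49 ± 0.14, adjusted p = 4.18e-07). Obp51a fell by 0.73, 0.60 and 0.66 in CBS-/-(8), double deletion (1) and double deletion (2), and Obp56g by 1.09, 0.66 and 0.54. In CBS-/-(8) males 6 of 11 accessory gland genes and 7 of 9 testis genes tested were lower as well, while in double deletion (1) none of either list was. The part of these lists in the members' values was not tested. After subtraction of the estimated female RNA the calls for Obp51a and Obp56g were lost in all 3 strains, and that for Obp22a in CBS-/-(8). In double deletion (1) females, Obp56g was higher (6.65, 34.1 and 7.14 CPM against 4.77, 6.56 and 6.36 CPM, 1.41 ± 0.50, adjusted p = 0.0404), and the one high library was library 2, which also carried the accessory gland transcripts, Obp51a at 15.8 CPM and Obp56f at 2.91 CPM.

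**Figure D4:**
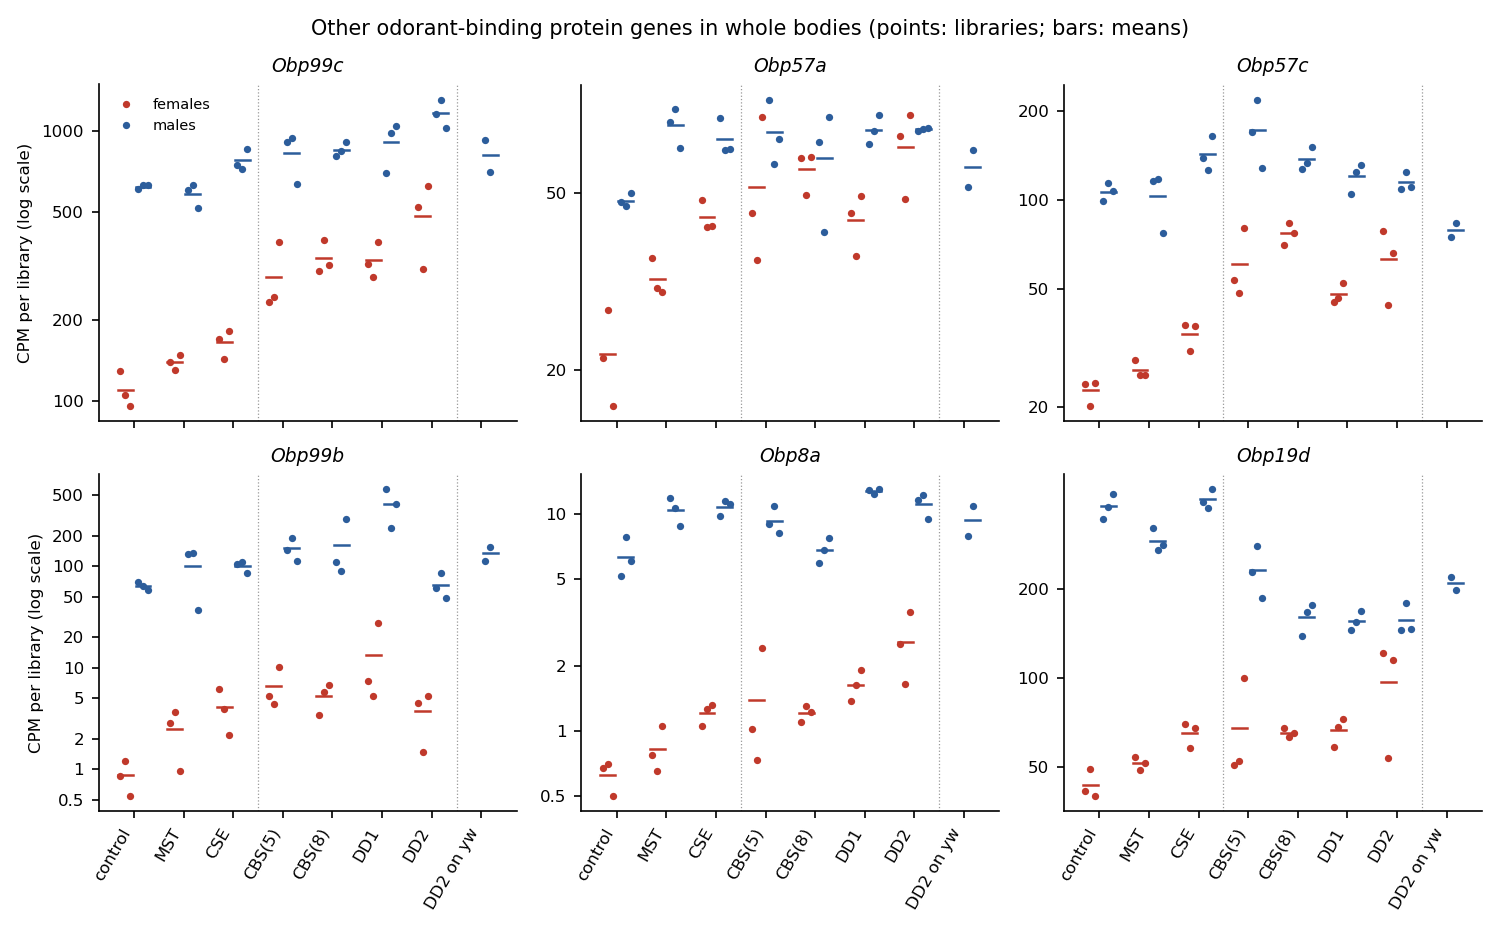
CPM per library (y axis, log scale) of 6 members that are not antennal, in whole females (red) and males (blue), with bars at the group means and dotted lines around the strains without Cbs. Obp99c and the Obp57 genes rise in females without Cbs, Obp19d falls in males, and Obp99b spreads widely within groups.

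MST-/- females had no member called of 28 by edgeR, where 0.891% of all genes were called, 0.531% as higher and 0.360% as lower. An unadjusted p under 0.05 was found for 2, and DESeq2 called 0. In CSE-/- females 12 of 28 members had an unadjusted p under 0.05. The median of the members was 0.53 there, against -0.003 for all genes. In these females 2.73% of genes were called (1.65% higher and 1.08% lower), and edgeR called 1 member and DESeq2 3. The count depended on the fit, and with only the 2 groups compared edgeR called 11 members in CSE-/- females, 10 in CSE-/- males, 1 in MST-/- females and 7 in MST-/- males. With scaling from thorax genes the CSE-/- split was 1 higher and 1 lower in either sex. For lush in males, the 95% interval of the difference from control had bounds of -0.53 and 0.24 for the MST-/- strain, while for CSE-/- the bounds were 0.05 and 0.81, so that a fall of the size seen without Cbs lay outside both.

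Adding the Cth deletion to a Cbs deletion was examined by comparing each double deletion strain with the CBS-/- strain it came from. In double deletion (1) females no member was called against CBS-/-(5) by edgeR (4 had an unadjusted p under 0.05, DESeq2 called 0, and 3.72% of all genes were called, 2.26% as higher and 1.46% as lower), and without CBS-/-(5) library 3 the count was 2. In double deletion (2) females 4 members were higher than in CBS-/-(8) and none lower (5.41% of genes, 3.08% higher and 2.33% lower), namely Obp28a (1.98 ± 0.47), Obp83cd, Obp83ef and Obp83g. That count ran from 2 to 13 on leaving out single libraries, being 13 without double deletion (2) library 2 and 2 without its library 3 or CBS-/-(8) library 1 or 3. In males 2 members were higher and 9 lower in double deletion (1) than in CBS-/-(5) (36.1% of genes, 16.3% higher and 19.8% lower, and 6 and 7 members with the thorax genes for scaling), among them Obp19c (1.46, 1.5 and 1.39 CPM against 6.4, 17.2 and 1.39 CPM, -2.62 ± 0.62, adjusted p = 0.0058). Without double deletion (1) library 1 the count was 7. Double deletion (2) males had 4 members higher and 4 lower than CBS-/-(8) (9.10% of genes, 4.83% higher and 4.27% lower), and 3 without double deletion (2) library 1 or 2, 4 without its library 3 or CBS-/-(8) library 1, and 5 without CBS-/-(8) library 2. Obp19c was again lower (1.39, 1.59 and 1.7 CPM against 7.7, 9.56 and 2.08 CPM, -2.08 ± 0.63, adjusted p = 0.0447). As given above, Obp19c is far higher in control females than in males, and the female RNA estimated in the CBS-/-(5) and CBS-/-(8) male libraries was 1.99% to 62.8% and 1.21% to 43.6%, against 0.52% to 1.10% in double deletion males. After its subtraction Obp19c was not lower in either comparison (0.84 and 1.15, adjusted p = 0.69 and 0.97). Of the 9 antennal members, edgeR called Obp28a between double deletion (2) and CBS-/-(8) females and Obp56d between the males (-0.79 ± 0.15), and DESeq2 called 2 in each sex. In those females 6 of the 9 had an unadjusted p under 0.05, and the list median was 1.98. Between double deletion (1) and CBS-/-(5) neither tool called an antennal member in either sex, and 1 had an unadjusted p under 0.05 in each.

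In the samples labelled thorax, the antennal members Obp83a, Obp83b, Obp19a and Obp59a differed between libraries of a group more than between groups. Obp83a had 0.0633, 0.268 and 19.9 CPM in the control female samples and 0.198, 8.45 and 1.31 CPM in those of CBS-/-(5). In males it had 0.723, 0.395 and 32.1 CPM in the control and 10.5, 1.01 and 0.255 CPM in CBS-/-(5). Library 3 of each control group, with few reads on no gene as given above, was near or above the whole-body level, and one library of each CBS-/-(5) group lay far above all 3 whole-body libraries of that strain and sex, which had at most 0.418 CPM. Obp83b, Obp19a and Obp59a had their highest value in the same library of each of the 4 groups. Of 25 members tested in females and 28 in males none was called by edgeR against the control, where 0% and 1.85% of all genes were called. An unadjusted p under 0.05 was found for 3 and 6 members, and DESeq2 called 1 in each sex. Obp19d had 563.5, 417.5 and 512.5 CPM in control male samples and 320, 241.5 and 298.6 CPM in those of CBS-/-(5) (-1.02 ± 0.30, adjusted p = 0.23). In females its CPM overlapped (42.6, 268 and 318 in the control, 128, 204 and 178 in CBS-/-(5)). The female groups were apart only after scaling, where control library 1 had a factor of 0.286 (-0.91 ± 0.46, adjusted p = 0.95).

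**Figure D5:**
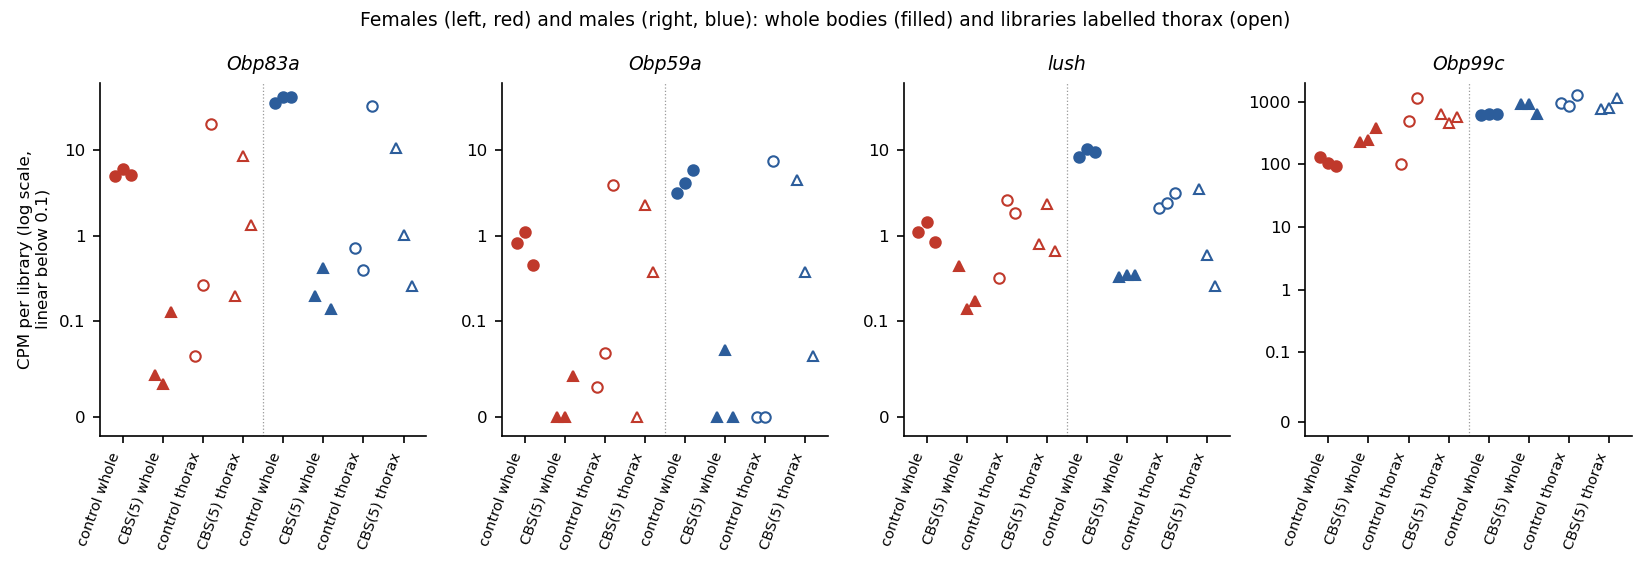
CPM per library (y axis, log scale, linear below 0.1) of 4 members in whole bodies (filled) and samples labelled thorax (open) of the control (circles) and CBS-/-(5) (triangles), females in red on the left and males in blue on the right of each panel. The antennal genes Obp83a and Obp59a spread over more than 1 order of magnitude among the thorax samples of a group, and Obp99c does not separate the strains there.

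Between the control samples labelled thorax and whole bodies, 20 of 28 members were higher and 1 lower in thorax females (72.3% of all genes called, 36.5% higher and 35.8% lower) and 15 of 34 higher and 8 lower in males (57.0%, 26.5% higher and 30.5% lower). All 6 taste organ members tested were higher in both sexes, for example Obp57c (22.3, 132 and 169 CPM against 23.9, 20.1 and 24.1 CPM in females, 3.09 ± 0.36). The low value was that of thorax library 1. Obp19c was lower in female thorax samples (0.411, 2.08 and 1.23 CPM against 84, 36.2 and 35 CPM, -4.50 ± 0.42, adjusted p = 1.23e-05). In males 5 of 6 seminal fluid members were lower and Obp8a was higher (8.25, 6.98 and 6.53 CPM against 5.18, 7.89 and 6.06 CPM, ranges that overlapped before scaling, 0.82 ± 0.26). Obp51a fell from 358, 384 and 330 to 0.361, 0.856 and 0.403 CPM (-8.77 ± 2.00, adjusted p = 0.0032). Between control thorax samples of both sexes, 1 of 31 members was higher in females and 1 lower (2.29% of genes, 1.52% higher and 0.771% lower). The higher one was Obp99a (27.4, 103 and 126 CPM against 0.663, 5.07 and 6.37 CPM, 4.90 ± 0.77, adjusted p = 0.0118) and the lower one Obp47a, with 0 counts in females against 54 in males, at least 24.9-fold lower. With thorax genes for scaling the split was 1 and 2, and DESeq2 called 9. Without control female thorax library 3 the count was 8, and it was 1 without control male thorax library 2 or 3.

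The 2 libraries labelled as the double deletion (2) backcrossed on yw had antennal transcripts again, besides those of Cbs and Cth. Obp83a had 43.6 and 4.66 CPM against 0.232, 0 and 0.154 CPM in double deletion (2) males, which is 678 counts against 5 (ratio 193, interval 82.4 to 597). lush had 10 and 2.1 CPM against 0.541, 0.476 and 0.539 CPM (3.66 ± 0.46, adjusted p = 1.22e-05), and Obp69a 5.86 and 1.24 CPM against 0.927, 0.873 and 0.385 CPM (2.41 ± 0.48). The first library was within or near the range of control males for these genes and the second was lower, and neither overlapped the double deletion (2) males. In all, 15 of 35 members were higher and none lower (21.1% of all genes called, 10.9% higher and 10.1% lower), among them 8 of 9 antennal members (list median 3.66) and none of 6 taste organ members. Without the first library 10 members were called. Whether the backcross, the return of Cbs and Cth transcripts or another difference between the libraries goes with these levels cannot be told apart.

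The effect of a deletion differed between the sexes for 4, 9, 16 and 21 of 37 members in CBS-/-(5), CBS-/-(8), double deletion (1) and double deletion (2), where 13.6%, 17.8%, 21.5% and 31.3% of all genes were called, and 8.02%, 9.75%, 19.0% and 19.8% as positive. Every one of these differences was positive, that is, the change was higher, or less negative, in females. In MST-/- and CSE-/- none was called by edgeR (0.214% and 0.813% of genes, 1 and 3 members with an unadjusted p under 0.05, DESeq2 0 and 2). The counts depended on the scaling. With the thorax genes they were 2 (1 in each direction), 1, 7 and 7, with medians of all genes of -0.37, -0.48, -0.20 and -0.51 in place of 0.09, 0.10, 0.38 and 0.21. They also depended on single libraries. The CBS-/-(5) count was 8 without female library 2 of that strain, 1 without female library 3 and 2 without control male library 2 or 3. The CBS-/-(8) count was 5 without control female library 3, CBS-/-(8) female library 1 or CBS-/-(8) male library 1, and the double deletion (1) count was 7 without female library 2, the library with male transcripts.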

How the data were processed

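Polyadenylated RNA of 57 libraries was sequenced by the authors as 75-base single reads with a directional kit. Per the labels and the study's methods, they trimmed reads with Trimmomatic 0.38, aligned them to dm6 with STAR 2.5.0a and counted reads per gene with featureCounts 1.5.0-p1, and they deposited raw counts per gene. The annotation and the strand setting of the counting are not given in the sources used here.

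Members were found by symbol. The members, gene lists and tests were chosen with earlier results of these data known. The 12 rows that name no gene were left out. Genes were filtered with filterByExpr (minimum count 10, minimum total 15) and tested with the quasi-likelihood test of edgeR 4.0.16 in R 4.3.3, with TMM scaling, 1 mean per group and Benjamini-Hochberg adjustment over all genes of a comparison. A gene was called at an adjusted p under 0.05. Whole-body groups of one sex were fitted together. CPM are counts divided by the library total on genes. Depth was 9705034 to 31616200 counts per library, and 1 library of 7321 was left out. For groups with few counts, pooled ratios with exact 95% intervals or a bound at 3 counts per group are given, and they cover counting error only. Female RNA in male libraries was estimated from eggshell and yolk protein genes. Of the members, 22 are given by library: lush and Obp69a, the 2 called members with the largest separated change of at least 1 CPM in each comparison with the control, the 3 with the highest CPM in each control group, those called in one direction in at least 4 of 6 strains of a sex, and the 3 most biased to each sex. Obp47a, Obp56d, Obp56i and the Obp83 genes of the second cluster are named outside this rule, chosen after their values were seen. The alternatives were DESeq2 1.42.0, TMM from thorax genes, other filters, the replicate block, fitting only the groups compared, subtraction of female RNA and leaving out each library. The steps were tested on simulated counts with known changes.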

Additional observations from a re-analysis of the deposited data

Results flagged for a closer look

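The effect of a deletion differed between the sexes for 35 named results, each tested as the female minus the male log2 fold change with edgeR, and in each the value was higher in females. No outlier test was applied to groups of 3 libraries.

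In CBS-/-(5) this held for Obp99c (0.83), Obp44a (0.97), Obp19d (1.21) and lush (2.42). In CBS-/-(8) the members were Obp57a (0.96), Obp44a (0.96), Obp99c (1.07), Obp19b (1.11), Obp57c (1.30), Obp56g (1.62) and Obp19d (1.73).

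In double deletion (1) they were Obp57c (1.02), Obp99c (1.15), Obp19b (1.72), Obp99a (1.79), Obp19d (2.03), lush (2.06), Obp56g (2.30), Obp83a (3.35), Obp22a (4.16), Obp56f (6.03) and Obp51a (10.52). The last 3 are genes of seminal fluid proteins, and their female values come mainly from library 2, the one with accessory gland transcripts. Double deletion (2) had Obp57b (0.89), Obp57a (0.92), Obp8a (1.11), Obp99c (1.13), Obp44a (1.16), Obp57c (1.27), Obp19b (1.64), Obp19d (2.33), lush (2.65), Obp59a (3.89), Obp83a (4.11), Obp83b (4.29) and Obp19a (5.81). The last 4 rest on few counts in this strain. Obp19a had 6 counts in females and 0 in males, so the size of its value is not fixed, and Obp59a had 6 and 1. Obp83a had 2, 1 and 20 counts in the female libraries and Obp83b 2, 0 and 14, mainly from library 3. In double deletion (1), Obp83a had 9 counts in females and 4 in males.

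Of the antennal members listed here, Obp99a had more CPM in 2 of 3 control female libraries than in any control male library, while Obp19a, Obp59a, Obp83a, Obp83b and lush had more in control males.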

How the results depend on the processing

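Counts of members called moved by over 1.5 times in 58 of 211 alternatives. With only the groups compared in the fit, the counts against control were 1 (MST-/-), 11 (CSE-/-) and 8 (CBS-/-(5)) in females and 7 (MST-/-) and 10 (CSE-/-) in males, 2 for double deletion (2) against CBS-/-(8) in either sex and for double deletion (1) against CBS-/-(5) in males, 0 for sex in the thorax, and 1, 3, 0 and 16 for the sex difference of MST-/-, CSE-/-, CBS-/-(5) and CBS-/-(8). DESeq2 called 3 in CSE-/- females, 4 in MST-/- and CSE-/- males, 1 in each thorax comparison of strains, 9 for sex in the thorax, and 2 and 14 for the sex difference of CSE-/- and CBS-/-(8). TMM from thorax genes gave 2 in CSE-/- females, 0 and 2 in MST-/- and CSE-/- males, and 2, 1, 7 and 7 for the sex differences without Cbs. Requiring 10 counts in every library, which removes the low antennal members, gave 8, 10, 12 and 15 in females without Cbs, 0, 12, 8 and 11 in males of MST-/-, CBS-/-(8) and the double deletions, 2 for double deletion (2) against CBS-/-(8) females, 17 for sex, 11 for tissue in males, 10 for the sex difference of double deletion (1) and 8 for the backcross. Subtracting female RNA gave 0 in MST-/- and CSE-/- males, 13, 9 and 9 in CBS-/-(8) and double deletion males, 2 for double deletion (2) against CBS-/-(8), 1 and 2 for the sex difference of CSE-/- and CBS-/-(5) and 8 for the backcross. With the share taken from ovary genes, an alternative chosen after seeing the data, these were 0 for MST-/- males, 4 for double deletion (2) against CBS-/-(8) and 2 for CBS-/-(5). By ovary genes, 3 male libraries were over 20% female RNA, CBS-/-(5) library 2 and CBS-/-(8) libraries 1 and 2. By eggshell and yolk protein genes, CSE-/- male libraries 2 and 3 (25.5% and 36.2%) were over it too, and they stayed in. Leaving out the 3 libraries, also chosen after seeing the data, gave 3 for double deletion (2) against CBS-/-(8) and 2 and 4 for the CBS-/- sex differences. No filter gave 2 for that of CBS-/-(5).

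The replicate numbers did not pair the libraries (mean correlation of same-numbered libraries -0.035 to 0.165). With the replicate block the MST-/- male count was 0, and calls were lost for Obp8a there, Obp56g in double deletion (1) females and Obp99c in double deletion (1) males.

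Leaving out 1 library gave these ranges. Against control in females they were 0 to 0 (MST-/-), 0 to 2 (CSE-/-), 9 to 19, 15 to 18, 16 to 18 and 20 to 24 for the strains without Cbs, and in males 0 to 2, 0 to 1, 15 to 19, 16 to 19, 11 to 14 and 13 to 16. Double deletions against CBS-/- gave 0 to 2 and 2 to 13 in females and 7 to 13 and 3 to 8 in males. Sex gave 34 to 35 in whole bodies and 1 to 8 in the thorax, tissue 20 to 23 in females and 20 to 26 in males, the backcross 10 to 15, and the sex differences 1 to 8, 5 to 12, 7 to 17 and 14 to 25 without Cbs.

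Directions reversed for Obp19c after subtraction of female RNA (0.84 against CBS-/-(5), 1.15 against CBS-/-(8), and 0.77 with ovary genes), for the sex difference of Obp22a in double deletion (1) without female library 2 (-1.67, with a range up to 5.91 on leaving out other libraries) and for Obp57a between control sexes with TMM from thorax genes (0.48). That scaling was not run between tissues. Of 1548 alternatives on named called members in which the member could be tested, 1365 kept direction and call, 179 lost the call and 4 reversed. Too few counts left 17 of the 52 members untested in either sex, and 12 had under 10 counts in every library. Among these 12 are the 4 members without counts, whose exons lie wholly within overlaps with other genes.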
